A study of Mus musculus with 4 samples.

Results

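Lipid droplets store triglyceride under a coat of proteins that also decides how fast the fat is released, and the 10 genes described here encode that coat and the lipases it controls. They are the perilipins Plin1, Plin2, Plin3, Plin4 and Plin5, the droplet fusion proteins Cidea and Cidec, the lipases Pnpla2 (also called ATGL) and Lipe (hormone-sensitive lipase), and G0s2, an inhibitor of Pnpla2. A gene was included through every probe whose name in the files was its symbol or an older alias: Plin for Plin1, Adfp for Plin2, M6prbp1 for Plin3, S3-12 for Plin4 and 2310076L09Rik for Plin5. This gave 12 probes of 41174 for 10 genes of 27597, with a pair of probes each for Pnpla2 and Lipe. All 12 probes were well above background on all 4 arrays, and none was saturated or marked as an outlier there. A further probe, named for a clone that RefSeq lists as a synonym of Lipe, was outside this rule, was well above background on the ob/ob array alone, and represented no gene.

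The arrays measured messenger RNA of skeletal muscle from mice that were 10 weeks old and fed ad libitum. The 4 genotypes were ob/ob TBP-2-/-, ob/ob, TBP-2-/- and WT, with 1 array each. TBP-2 is the labels' name for Txnip, a thioredoxin-binding protein that limits the entry of glucose into cells. Mice of the ob/ob genotype make no working leptin and grow obese. The comparisons ask how TBP-2 loss alters these transcripts in lean and in ob/ob muscle, and how the ob/ob genotype alters them with and without TBP-2. The labels do not give the muscle, sex, strain, the deleted part of TBP-2, or whether mice were pooled. Since a genotype had 1 array, the pairwise differences lack a replicate check, and higher and lower refer to these arrays.

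In muscle, droplets lie beside mitochondria and supply them with fatty acids. Pnpla2 takes the first fatty acid from triglyceride and needs the coactivator Abhd5, Lipe cuts the diglyceride that remains, and G0s2 blocks Pnpla2. Perilipins hold these proteins apart or bring them together: Plin1 belongs to the large droplets of adipocytes, Plin5 to oxidative tissues such as muscle and heart, Plin2 and Plin3 are found in most tissues, and Plin4 in adipocytes and muscle. Cidea and Cidec join small droplets into larger ones and are best known from brown and white fat.

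Plin1 and Cidec had the most similar profiles of all pairs among the 10 genes, while Plin5 went the other way on the ob/ob TBP-2-/- array, so their promoters are shown, with that of Plin2 for comparison. Each sequence is the 250 bases before the gene's first listed start site, from RefSeq on GRCm38.p6, read 5′ to 3′ on the gene's strand, which is the minus strand in each case. Plin1 is chr7:79732777-79733026, Cidec chr6:113435761-113436010, Plin5 chr17:56117549-56117798 and Plin2 chr4:86670060-86670309. Capitals mark a match to AGGTCA, the core motif of nuclear receptors such as the PPARs, or to its reverse complement TGACCT.
Plin1: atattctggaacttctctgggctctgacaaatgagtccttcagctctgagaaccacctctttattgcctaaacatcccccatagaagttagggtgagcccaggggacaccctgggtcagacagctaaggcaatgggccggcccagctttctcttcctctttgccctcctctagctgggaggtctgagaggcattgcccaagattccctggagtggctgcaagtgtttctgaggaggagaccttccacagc
Cidec: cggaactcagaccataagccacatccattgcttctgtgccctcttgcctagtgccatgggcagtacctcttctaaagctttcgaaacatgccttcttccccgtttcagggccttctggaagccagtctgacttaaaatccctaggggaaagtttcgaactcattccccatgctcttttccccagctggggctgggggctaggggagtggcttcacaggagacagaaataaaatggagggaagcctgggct
Plin5: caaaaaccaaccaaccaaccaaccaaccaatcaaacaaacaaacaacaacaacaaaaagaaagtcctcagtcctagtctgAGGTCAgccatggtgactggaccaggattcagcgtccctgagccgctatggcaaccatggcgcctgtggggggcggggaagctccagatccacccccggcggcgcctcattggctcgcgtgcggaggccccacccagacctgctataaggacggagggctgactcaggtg
Plin2: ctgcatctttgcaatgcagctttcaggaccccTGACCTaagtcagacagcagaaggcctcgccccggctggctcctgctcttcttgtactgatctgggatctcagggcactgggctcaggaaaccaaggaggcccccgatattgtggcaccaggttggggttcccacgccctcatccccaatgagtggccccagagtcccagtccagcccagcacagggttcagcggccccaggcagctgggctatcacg

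RefSeq promoters were searched for 9 of the 10 genes, at 12 start sites. The motif AGGTCA, on either strand, occurred once in the Plin5 promoter shown, 170 bases before the start, and once in that of Plin2, 218 bases before it. It occurred in 14% of all 32851 promoters of this length. None of the 12 held a direct repeat of AGGTCA with 1 base between (0.0335% of all promoters, either strand, each match also holding AGGTCA), and 1 promoter of Lipe held the E-box CACGTG (6.02%). A match describes letters in this window and not binding.

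Of 41174 probes, between 22677 (WT) and 24222 (TBP-2-/-) were well above background on each array, and 14940 genes were so on all 4. The signals below are the scanner software's processed signals. Differences were taken after each signal was divided by its array's 75th percentile, which was 262 (ob/ob TBP-2-/-), 309 (ob/ob), 307 (TBP-2-/-) and 280.0 (WT), and levels are log2 values over that percentile. Errors are standard errors (SE) of the scanner's error model, about 0.20 for a log2 difference. They hold only the technical error within an array, and none of the variation among mice. Txnip, the targeted gene, had signals of 166 on the ob/ob TBP-2-/- array and 868 on the TBP-2-/- array, against 13142 on the ob/ob and 13209 on the WT array, and its other probe was well above background only on the ob/ob and WT arrays. All 10 muscle fibre markers (Ckm, Acta1, Mylpf and others) were well above background on every array.

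On TBP-2 loss in lean muscle 8 of the 10 genes were above 0 (log2 difference), where 39.6% of all genes were above 0. The largest difference was that of G0s2, 2.96-fold higher, and it was the only one of 2-fold or more. Among all 15222 genes measured on both arrays, 1.73% were 2-fold or more higher and 0.88% lower. On the ob/ob background, Plin1 was 2.47-fold and Cidec 2.45-fold higher without TBP-2, and Plin5 was 2.38-fold lower. Of 15491 genes measured there, 1.89% were 2-fold higher and 0.904% lower.

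**Figure D1:**
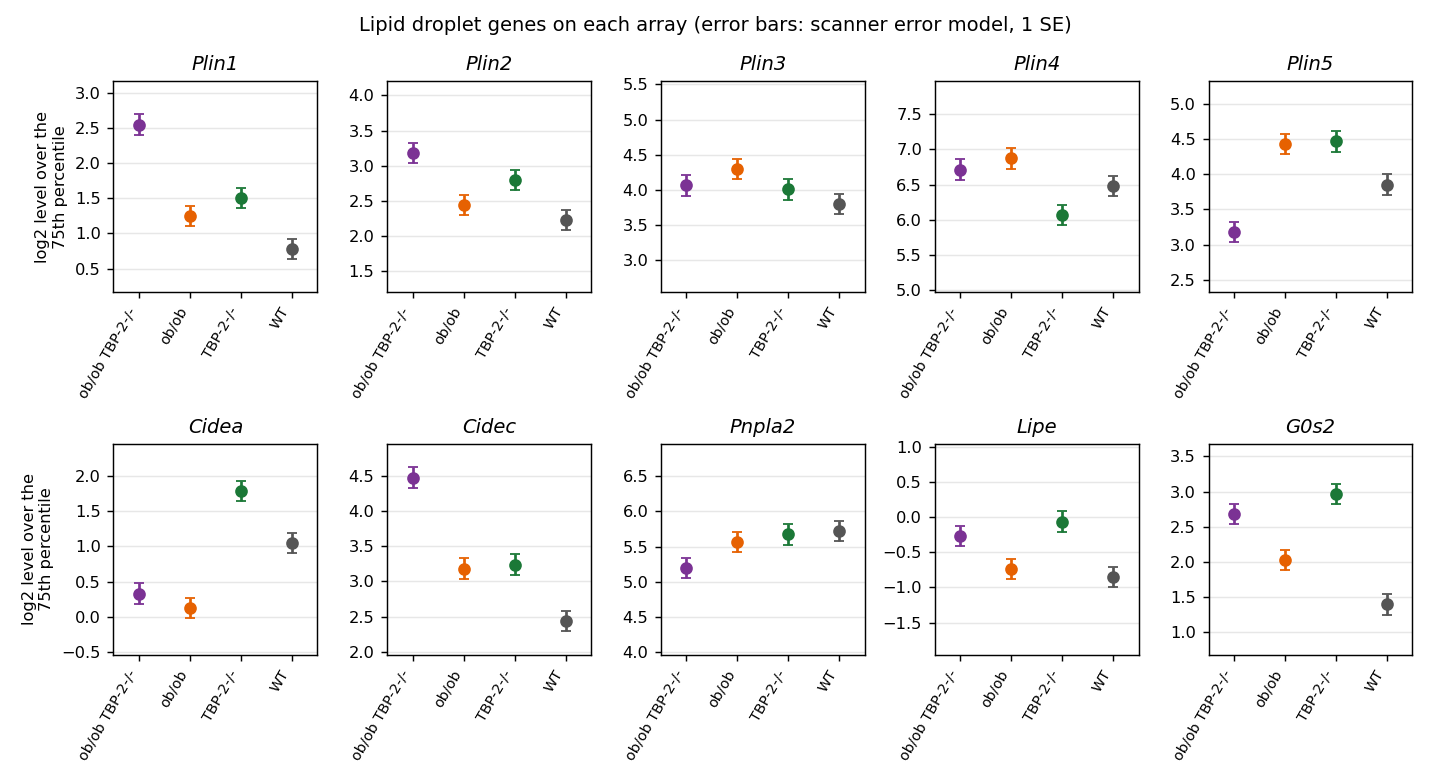
Level of each of the 10 genes on the 4 arrays, as log2 of the signal over the array's 75th percentile, with 1 array per genotype and error bars of 1 SE from the scanner's error model. Each panel spans the same log2 range around its own centre: Plin1 and Cidec are highest in ob/ob TBP-2-/- muscle (2.55 and 4.47), Plin5 is lowest there (3.18), and Cidea is low on both ob/ob arrays.

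Plin1 coats the droplets of adipocytes and, once phosphorylated, lets lipases reach them. Its probe lies at chr7:79594739-79594798 (mm8, as are all probe positions here). The signals were 1530.1 in ob/ob TBP-2-/-, 732 in ob/ob, 869 in TBP-2-/- and 482 in WT muscle. After scaling, ob/ob TBP-2-/- muscle stood apart at a level of 2.55, WT muscle was lowest at 0.78, and TBP-2-/- and ob/ob muscle lay between them and did not differ beyond 1.96 SE. Without TBP-2 the level was higher by 1.30 ± 0.20 on the ob/ob and by 0.72 ± 0.20 on the lean background (log2). Set against the same TBP-2 genotype, the ob/ob arrays were higher by 1.04 without and by 0.46 with TBP-2. The first of these was 2.06-fold.

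Plin2, the most widespread perilipin, which rises with the fat content of many cells, was probed at chr4:86128003-86128062. It had signals of 2373 in ob/ob TBP-2-/-, 1680.2 in ob/ob, 2137 in TBP-2-/- and 1314 in WT muscle. The order of the arrays was that of Plin1, but no neighbours in it differed beyond 1.96 SE. The TBP-2-null arrays were 1.67-fold higher on the ob/ob and 1.49-fold higher on the lean background, both beyond 1.96 SE.

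Plin3, a perilipin that moves from the cytosol to forming droplets, was probed at chr17:55912715-55912774. Its signals were 4387 in ob/ob TBP-2-/-, 6059 in ob/ob, 4926 in TBP-2-/- and 3902 in WT muscle, and no neighbours in the order of levels differed beyond 1.96 SE. The highest and the lowest array, ob/ob and WT, did so, by 0.49 ± 0.20 (log2). Plin4, at chr17:55693925-55693984, had signals of 27525 in ob/ob TBP-2-/-, 36216 in ob/ob, 20610 in TBP-2-/- and 24994 in WT muscle. For Plin4 the ob/ob arrays were the higher ones, by 0.64 without and by 0.39 with TBP-2 (log2), and the TBP-2-/- array was lowest. Plin4 was thus the coat gene that was lower without TBP-2 on both backgrounds, with log2 differences of -0.16 on the ob/ob and -0.41 on the lean one.

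Plin5 ties droplets to mitochondria and binds both Pnpla2 and Abhd5. Its probe is at chr17:55704971-55705030, near that of Plin4. The signals were 2379 in ob/ob TBP-2-/-, 6675 in ob/ob, 6772 in TBP-2-/- and 4043 in WT muscle. Each mutation alone went with a higher level than WT (0.58 for ob/ob and 0.61 for TBP-2-/-), whereas the array with both mutations was the lowest, 0.67 below WT. TBP-2 loss therefore went with a difference of -1.25 ± 0.20 on the ob/ob and 0.61 ± 0.20 on the lean background. The gap between these, -1.86 ± 0.29, was the 49th lowest of 14940 genes, whose median gap was 0.09 and of which 3.71% had a gap of 1 or more in size. The design leaves no residual degree of freedom to test such a gap. G0s2 followed at -0.91, and the other 8 genes lay between -0.54 and 0.58.

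**Figure D2:**
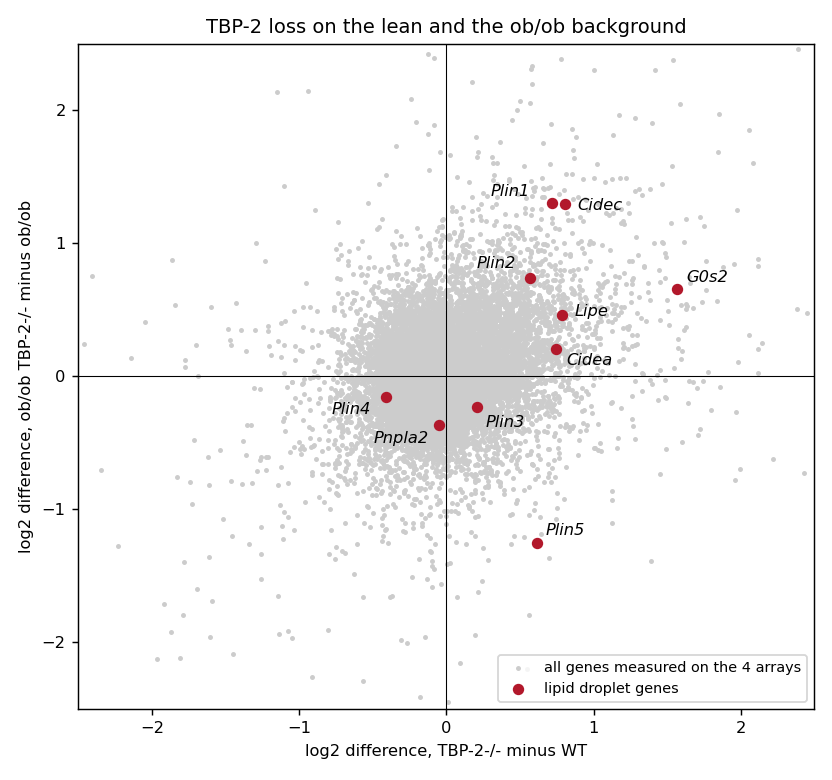
Log2 difference on TBP-2 loss on the lean background (horizontal, TBP-2-/- minus WT) against that on the ob/ob background (vertical, ob/ob TBP-2-/- minus ob/ob), with 1 point per gene well above background on all 4 arrays and 43 genes beyond the axes at 2.5. Plin1, Plin2, Cidec, Lipe, Cidea and G0s2 lie at upper right, and Plin5 lies at 0.61 and -1.25.

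The fusion proteins parted from each other. Cidec, also called FSP27, which enlarges the single droplet of white adipocytes, was probed at chr6:113390476-113390535. It had signals of 5830 in ob/ob TBP-2-/-, 2806 in ob/ob, 2896 in TBP-2-/- and 1516 in WT muscle. The array with both mutations was highest and WT lowest, while ob/ob and TBP-2-/- muscle did not differ beyond 1.96 SE. ob/ob TBP-2-/- muscle stood 2.04 above WT (log2), the widest such gap among the 10 genes. The ob/ob arrays were higher by 1.24 without and by 0.75 with TBP-2.

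Cidea, the relative known from brown fat, was probed at chr18:67493066-67493125. Its signals were 329.9 in ob/ob TBP-2-/- and 338 in ob/ob muscle, against 1062 in TBP-2-/- and 579.8 in WT muscle. Both ob/ob arrays were thus below both lean ones, 2.75-fold without TBP-2 and 1.90-fold with it, and they did not differ from each other beyond 1.96 SE. In lean muscle Cidea was 1.67-fold higher without TBP-2. Within an array, where scaling plays no part, Cidec over Cidea was 6.48-fold higher in ob/ob TBP-2-/- than in TBP-2-/- muscle and 3.18-fold higher for ob/ob against WT muscle.

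Pnpla2, which starts triglyceride breakdown, was probed at chr7:141311351-141311410. It had signals of 9625 in ob/ob TBP-2-/-, 14597 in ob/ob, 15629 in TBP-2-/- and 14784 in WT muscle. The array with both mutations was lowest, although no neighbours in the order differed beyond 1.96 SE. Its difference from TBP-2-/- muscle, -0.47 ± 0.20 (log2), was beyond 1.96 SE. The other Pnpla2 probe, at chr7:141310521-141310580, had signals of 2427 in ob/ob TBP-2-/-, 4628 in ob/ob, 4931 in TBP-2-/- and 4703 in WT muscle. On this probe the log2 difference was -0.69 for ob/ob TBP-2-/- minus ob/ob and -0.80 for ob/ob TBP-2-/- minus TBP-2-/-, against -0.36 and -0.47 on the brighter one. The arrays had the same order on both probes, with a wider gap on the dimmer one.

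Lipe was probed at chr7:25089715-25091968, a span longer than the probe itself. The signals were 217 in ob/ob TBP-2-/-, 185 in ob/ob, 293 in TBP-2-/- and 155 in WT muscle. Both arrays without TBP-2 were above both arrays with it, except with spike-in scaling, where the ob/ob pair turned, and within each of these pairs the levels did not differ beyond 1.96 SE. Lipe was 1.73-fold higher on TBP-2 loss in lean and 1.38-fold in ob/ob muscle. The other probe, at chr7:25089569-25089628, had signals of 179.9 in ob/ob TBP-2-/-, 151 in ob/ob, 224 in TBP-2-/- and 118 in WT muscle, in the same order, with differences of 0.49 on the ob/ob and 0.79 on the lean background (log2).

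G0s2 binds Pnpla2 and blocks it. Its probe is at chr1:194973455-194973514, and the signals were 1689 in ob/ob TBP-2-/-, 1262 in ob/ob, 2392 in TBP-2-/- and 738 in WT muscle. The arrays without TBP-2 were highest and did not differ beyond 1.96 SE, ob/ob came next and WT was lowest. The lean difference of 1.57 ± 0.20 (log2) was the 80th highest of 15222 genes. On the ob/ob background it was 0.66 ± 0.20. Within an array, G0s2 over its target Pnpla2 was 3.07-fold higher in TBP-2-/- than in WT muscle, 2.03-fold higher in ob/ob TBP-2-/- than in ob/ob muscle, and 1.73-fold higher for ob/ob against WT muscle. These ratios show unequal change of a pair of transcripts and not which of them moved.

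**Figure D3:**
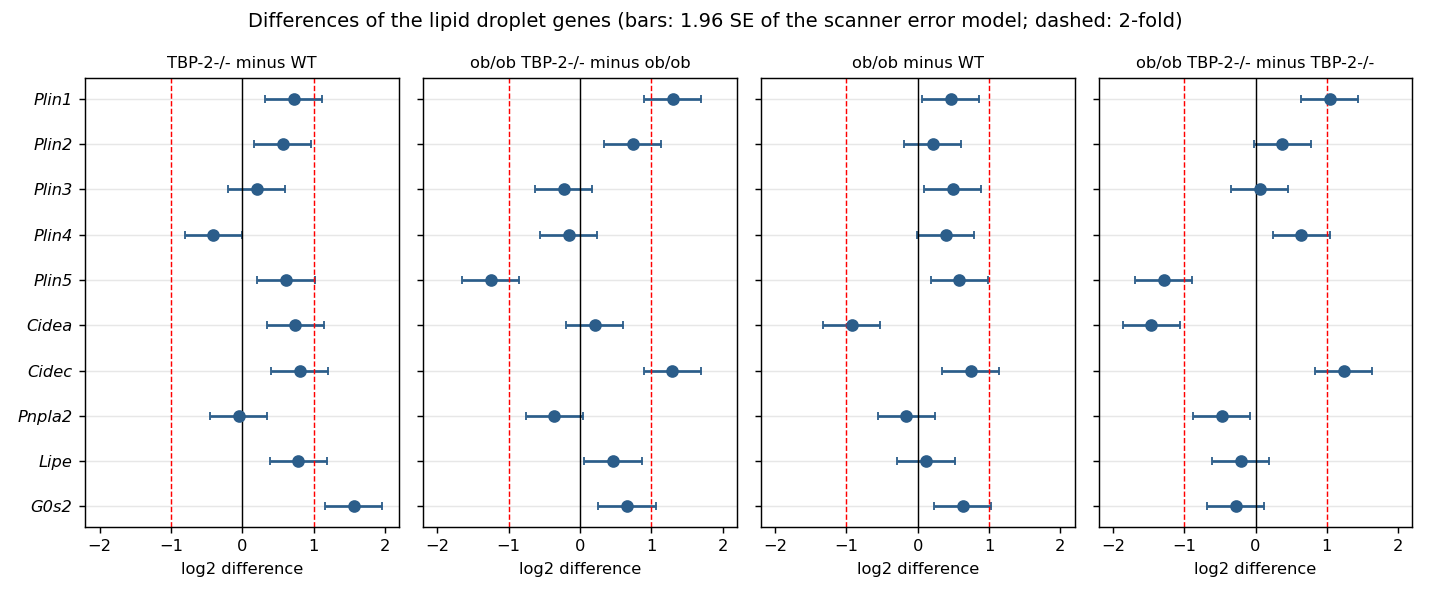
Log2 difference of each gene (rows) in the 4 comparisons (panels), with bars of 1.96 SE from the scanner's error model and dashed lines at 2-fold. G0s2 alone passes 2-fold in TBP-2-/- minus WT, Plin1, Cidec and Plin5 in ob/ob TBP-2-/- minus ob/ob, no gene passes it in ob/ob minus WT, and Plin1, Cidec, Plin5 and Cidea in ob/ob TBP-2-/- minus TBP-2-/-.

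Counted over the 10 genes, TBP-2 loss went with 1 gene 2-fold higher and 0 lower in lean muscle, and with 2 higher and 1 lower in ob/ob muscle. The median log2 difference of the 10 was 0.67 in lean muscle, against -0.07 for all genes, and 0.33 in ob/ob muscle, against 0.03. With spike-in scaling the median of the 10 in ob/ob muscle was below 0. These comparisons share no array. In both of them 6 of the 10 genes were above 0 (Plin1, Plin2, Cidec and G0s2 under every scaling, and Cidea and Lipe except with spike-in scaling in ob/ob muscle). Plin4 and Pnpla2 were below 0 in both, Pnpla2 not with spike-in scaling or quantile normalization in lean muscle, and Plin3 and Plin5 went opposite ways. Of all 14940 genes, 25.0% were above 0 in both and 44.4% went opposite ways. No member was 2-fold different the same way in both. Of the 14940 genes, 56 were 2-fold higher in both and 31 were 2-fold lower in both.

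In ob/ob minus WT all 10 genes were within 2-fold, although with spike-in scaling, which raises every gene in this comparison, 6 of the 10 were 2-fold higher. With the 75th percentile 1.88% of 15091 genes were 2-fold higher and 1.75% lower. The difference largest in size was that of Cidea, -0.92. Without TBP-2, ob/ob muscle had Plin1 2.06-fold and Cidec 2.35-fold higher and Plin5 2.43-fold and Cidea 2.75-fold lower, so that 2 genes were higher and 2 lower by 2-fold. There 1.77% of 15646 genes were 2-fold higher and 1.68% lower. The median over the 10 was -0.07 without TBP-2, against 0.04 for all genes, and 0.43 with TBP-2, against -0.05.

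The only test the design allows fits the TBP-2 and the ob/ob genotype as additive effects over the 4 arrays (limma, 1 residual degree of freedom, 16147 genes, Benjamini-Hochberg over all of them). None of the 10 genes passed an adjusted p of 0.05 for either effect. Of all genes, 0.0557% passed as higher and 0.0372% as lower for TBP-2 loss, and 0.0991% each way for ob/ob. At an unadjusted p under 0.05 there were 1566 genes for TBP-2 loss and 2161 for ob/ob. For TBP-2 loss the lowest p was that of Cidec (log2 effect 1.05 ± 0.20, limma adjusted p = 0.287), followed by Plin1 (1.01 ± 0.21, adjusted p = 0.311) and G0s2 (1.11 ± 0.27, adjusted p = 0.331). For ob/ob it was that of Cidea (-1.19 ± 0.20, limma adjusted p = 0.165), followed by Cidec (0.99 ± 0.20, adjusted p = 0.184). Plin5, whose arrays depart from additivity, had effects of -0.32 ± 0.47 and -0.35 ± 0.47, with limma adjusted p = 0.901 and 0.801. With a normexp background correction 4 of the 10 genes passed for each effect: Plin1, Plin2, Cidec and G0s2 for TBP-2 loss, and Plin1, Plin4, Cidea and Cidec for ob/ob. Of all 16147 genes, 559 passed for TBP-2 loss and 991 for ob/ob under this correction, against 15 and 32 without it.

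Scaling to spike-in RNA in place of the 75th percentile moved the median of all genes, to 0.17 in TBP-2-/- minus WT, -0.48 in ob/ob TBP-2-/- minus ob/ob and -0.07 in ob/ob TBP-2-/- minus TBP-2-/-. For ob/ob minus WT it moved to 0.60. Under it the direction turned for Pnpla2 on TBP-2 loss in lean muscle (0.20, and 0.11 with quantile normalization), for Cidea and Lipe on TBP-2 loss in ob/ob muscle (-0.31 and -0.05), for Pnpla2 in ob/ob minus WT (0.49, and 0.07 with quantile normalization) and for Plin3 in ob/ob TBP-2-/- minus TBP-2-/- (-0.05). Plin1 and Cidec kept their direction but fell under 2-fold on TBP-2 loss in ob/ob muscle (0.79 and 0.78), and Plin5 stood at -1.76. The split of all genes 2-fold higher and lower in ob/ob minus WT was 2106 and 70 under this scaling, against 283 and 264. It was 81 and 876, against 293 and 140, in ob/ob TBP-2-/- minus ob/ob, and 508 and 84, against 264 and 134, in TBP-2-/- minus WT. In ob/ob TBP-2-/- minus TBP-2-/- it was 216 and 360, against 277 and 263.

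Among partners of the droplet outside the 10 genes, only Pnpla3, a lipase relative bound to droplets, differed 2-fold in any comparison where it was measured on both arrays. Pnpla3 was 2.08-fold higher in ob/ob TBP-2-/- than in ob/ob muscle and 3.57-fold higher than in TBP-2-/- muscle, with 13 partners measured in each. The first of these fell under 2-fold with spike-in scaling. Pnpla3 was dim, with signals of 59.1 in ob/ob TBP-2-/-, 33.5 in ob/ob and 19.4 in TBP-2-/- muscle, and was not well above background in WT muscle. Of the 12 measured in TBP-2-/- minus WT, and of the 12 in ob/ob minus WT, 0 reached 2-fold. Abhd5, the coactivator of Pnpla2, had signals of 424 in ob/ob TBP-2-/-, 707 in ob/ob, 548 in TBP-2-/- and 604 in WT muscle. It was lowest on the array where Pnpla2 and Plin5 were lowest. Mgll, which frees the last fatty acid, was 1.51-fold higher on TBP-2 loss in ob/ob and 1.92-fold in lean muscle. The 12 genes of triglyceride synthesis were all within 2-fold in the 4 comparisons, with a median of 0.17 on TBP-2 loss in ob/ob muscle, below 0 with spike-in scaling, and 0.14 in lean muscle. Among 15 genes of adrenergic and insulin control, Prkar2b, a regulatory subunit of protein kinase A, was 2-fold different in 2 comparisons: it was 2.68-fold higher in ob/ob TBP-2-/- than in ob/ob muscle and 3.15-fold higher than in TBP-2-/- muscle. With spike-in scaling the first of these was under 2-fold. The list's medians in these comparisons were 0.06 (13 measured) and 0.03 (14 measured), against 0.03 and 0.04 for all genes.

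White adipocyte markers were mostly higher where Plin1 and Cidec were higher on TBP-2 loss, but not in ob/ob minus WT. Of 13 measured in each comparison, 5 were 2-fold higher and 0 lower on TBP-2 loss in ob/ob muscle (median 0.99), and 5 higher and 0 lower in lean muscle (median 0.55). Of all genes, 1.89% were 2-fold higher and 0.904% lower in ob/ob muscle (median 0.03). In lean muscle these shares were 1.73% and 0.88% (median -0.07). The markers with the largest differences in ob/ob muscle were Acvr1c (3.39-fold), Lep (2.73-fold), Adipoq (2.66-fold) and Retn (2.58-fold). In lean muscle they were Trarg1 (2.79-fold), Lep (2.76-fold), Adipoq (2.47-fold) and Sncg (2.08-fold). Acvr1c was dim, with signals of 40.8 in ob/ob TBP-2-/- and 14.2 in ob/ob muscle (log2 difference 1.76 ± 0.32). In ob/ob minus WT, 6 of the 13 were above and 7 below 0 (median -0.04), while Plin1 stood at 0.46 and Cidec at 0.75. In ob/ob TBP-2-/- minus TBP-2-/-, 10 were above and 3 below 0 (median 0.38). Adipoq, which encodes adiponectin, had signals of 5041 in ob/ob TBP-2-/-, 2240 in ob/ob, 3496 in TBP-2-/- and 1291 in WT muscle, so its lowest and highest arrays were those of Plin1 and Cidec. The summed level of the list, over the 75th percentile, was 740 in ob/ob TBP-2-/-, 624 in ob/ob, 808 in TBP-2-/- and 805 in WT muscle, and did not follow that order. Gpd1, Car3 and Fabp4 weigh most in this sum, with the highest signals of the list on each array (87679, 77840 and 40914 in WT muscle). Gpd1 and Car3 were the 2 markers below 0 on TBP-2 loss in lean muscle (-0.29 and -0.27). Whether their signals came from adipocytes or from muscle fibres was not tested, so the sum does not measure adipocytes alone. Adrb3 of this list was not well above background on any array, and Pck1 was not matched. Markers of macrophages and fibroblasts also stood higher on TBP-2 loss. All 6 macrophage markers were above 0 on both backgrounds (median 0.25 in ob/ob and 0.61 in lean muscle). So were all 5 fibroblast markers (0.43 and 0.34), among which Col1a1 was 2.01-fold and 2.77-fold higher. Of all genes, 54.9% were above 0 in ob/ob and 39.6% in lean muscle. Of 5 endothelial markers, 1 was above 0 in ob/ob (median -0.19) and 4 in lean muscle (0.17). Of 10 muscle fibre markers, 6 were above 0 in ob/ob (0.12) and 0 in lean muscle (-0.18). With spike-in scaling, which lowers every gene on TBP-2 loss in ob/ob muscle, the medians of the macrophage and fibroblast lists there were below 0. Both medians of the fibre list changed sign under it. The median of the white adipocyte list in ob/ob muscle stayed above 0 under spike-in scaling. Of its 5 markers 2-fold higher there, only Acvr1c stayed so, and Col1a1 also fell under 2-fold. The part of these cell types in the values of Plin1 and Cidec was not tested, and in bulk tissue more cells of a type and more RNA per cell cannot be told apart.

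Cidea did not have the profile of most adipocyte markers. Its low level on both ob/ob arrays was shared by Cfd (adipsin), with signals of 3382 in ob/ob TBP-2-/- and 1627 in ob/ob, against 34430 in TBP-2-/- and 15411 in WT muscle. Of 6 brown adipocyte markers, Ucp1 and Elovl3 were not well above background on any array, Otop1 was so on 1, Zic1 on 3, and Cox8b and Ppargc1b on all 4. Cox8b had a signal of 84272 in WT muscle, where that of Ucp1 was 2.74. Set against the same TBP-2 genotype, Cox8b and Ppargc1b were also lower on the ob/ob arrays. The log2 differences were -0.24 and -0.52 without TBP-2 and -0.46 and -0.36 with it (the last pair above 0 with spike-in scaling). Of these, -0.24 for Cox8b and -0.36 for Ppargc1b were within 1.96 SE. Unlike Cidea, Cox8b was not lower on both ob/ob arrays than on both lean ones. Its log2 difference from WT was -0.46 in ob/ob and -0.54 in TBP-2-/- muscle. Zic1 was higher in ob/ob TBP-2-/- than in TBP-2-/- muscle (0.96). Whether the signals of Cox8b and Ppargc1b came from brown adipocytes or from muscle fibres was not tested. Nor was the part of brown adipocytes in the level of Cidea.

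PPAR target genes, which muscle uses to burn fatty acids, are given beside Plin5, a known PPAR target. In lean muscle without TBP-2, 5 of 18 were 2-fold higher and 0 lower, with a median of 0.48 (all genes 1.73%, 0.88% and -0.07), among them Acot1 (2.97), Angptl4 (1.59), Acot2 (1.39) and Pdk4 (1.28, all log2). In ob/ob TBP-2-/- minus TBP-2-/-, 6 were 2-fold lower, all 18 were below 0 and the median was -0.81, where 1.68% of all genes were 2-fold lower, 55.4% were above 0 and the median was 0.04. Plin5 was likewise above 0 in the first and below 0 in the last. On TBP-2 loss in ob/ob muscle, Angptl4 (2.59) and Pdk4 (1.40) were 2-fold higher and Acot2 (-1.39) lower, while Plin5 was -1.25. With spike-in scaling Pdk4 fell under 2-fold there, and further genes of the list were 2-fold lower.

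**Figure D4:**
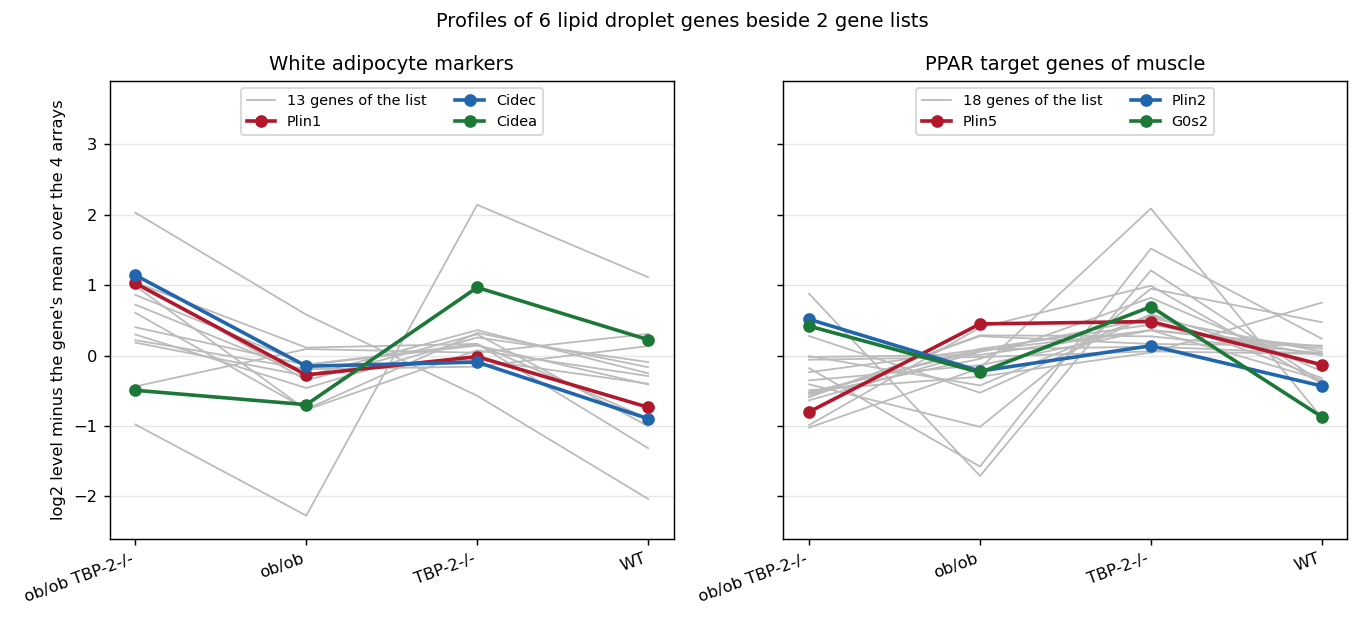
Log2 level minus the gene's own mean over the 4 arrays, with grey lines for 13 white adipocyte markers (left) and 18 PPAR target genes (right) and coloured lines for 6 lipid droplet genes. Lines only join the values of a gene: Plin1 and Cidec run together, Cidea is low on both ob/ob arrays, and Plin5 is low in ob/ob TBP-2-/- muscle alone.

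Likeness of profiles was measured as the root mean square distance between log2 levels centred on each gene's mean over the 4 arrays. Among the 10 genes Plin1 and Cidec were closest (0.123), followed by Plin2 and Lipe (0.210), Plin3 and Plin4 (0.250) and Lipe and G0s2 (0.305). Of 12600 genes, those nearest to Plin1 were Cpz (0.0389), Ccl2 (0.0556), Hdc (0.0699), Abhd15 (0.0792) and Phgdh (0.0907). Those nearest to Cidec were Rhpn2 (0.0515), Tceal7, Hdc, Fads3 and Kcnk3 (0.109). Nearest to Plin5 came Zc3h3 (0.144), Fndc5, Esrrb, Vgll2 and Slc27a1 (0.174), to Cidea Cmah (0.0656), Gas2l3, Myo1h, Rftn1 and Retnla, and to G0s2 Ccnb2 (0.0547), Ms4a6d, Adgrg2, Mbp and Drp2 (0.144). The distances rest on 4 arrays and describe only these.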

How the data were processed

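Skeletal muscle RNA of 4 genotypes was hybridised to 1-colour Agilent arrays, 1 per genotype, on 1 slide and in 1 scan per the file headers. Per the labels' protocols, 0.5 micrograms of RNA were labelled with Cy3 together with spike-in RNA. The deposited spot intensity values come from Agilent Feature Extraction 9.5.3.1 (per the submitters' processing notes). They are background-subtracted and not scaled between arrays. A deposited value table of the same arrays holds log2 values, which comparison with the scanner signals showed to be scaled at the 75th percentile and centred on each probe's median. Its differences matched the scanner values with a median gap of 4.36e-05 to 0.000113 (log2).

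From the scanner files, processed signals were turned to log2 and the 75th percentile of an array's non-control probes was subtracted. Outlier spots were left out and spots of a probe averaged. The probe with the highest mean level stood for its gene. Probes were named through RefSeq accessions (24375), symbols (6301) or synonyms (2426) on GRCm38.p6, or kept the file's name (8072). Probe positions come from the array's own annotation (mm8), for which no exon or UTR annotation was used here. A gene entered a pairwise comparison when well above background on both arrays, and the threshold was 2-fold. The additive fit used limma 3.58.1 in R 4.3.3 (lmFit and eBayes, 3.527 prior degrees of freedom), on genes that stood well above background on 2 arrays or more, and was tested on simulated data. Figures were drawn with Python 3.11.15 and matplotlib 3.10.9. The number of arrays limits the precision. Alternatives were quantile normalization, spike-in scaling (8 of 10 spike-in probes), normexp background correction, the median of a gene's probes, outlier spots kept, other filters on dim genes, and the deposited value table.

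All 10 genes are named, with every probe, and of the other lists the genes 2-fold different in a comparison, at most 4 per list and comparison by size, as well as the 5 genes nearest in profile to each of the 10 whose level spanned 1 or more (log2). Abhd5, Mgll, Ucp1, Elovl3, Otop1, Zic1, Cox8b, Ppargc1b, Adrb3, Gpd1, Car3, Fabp4 and the fibre markers are given beyond this rule. So are the signals of Adipoq, Cfd, Pnpla3 and Acvr1c. All of these were added after their values were seen. The genes and lists were chosen with earlier results of these data known.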

Additional observations from a re-analysis of the deposited data

Results flagged for a closer look

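Plin5 differed in opposite directions under the same contrast. On TBP-2 loss its log2 difference was -1.25 on the ob/ob background (ob/ob TBP-2-/- minus ob/ob) and 0.61 on the lean background (TBP-2-/- minus WT). Seen from the other factor, the same 4 arrays gave -1.28 for ob/ob TBP-2-/- minus TBP-2-/- and 0.58 for ob/ob minus WT. Each value lay beyond 1.96 SE of the scanner's error model. The difference between the effects was not tested, since each genotype had 1 array.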

How the results depend on the processing

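Of the 40 pairwise differences of the 10 genes, 38 moved by less than 1 SE under quantile normalization, 10 under spike-in scaling and 40 under each of the other 5 settings, and the sign turned in 2, 5 and 0 of them. Counts of genes 2-fold higher under spike-in scaling were 3 in TBP-2-/- minus WT (1 with the 75th percentile), 0 in ob/ob TBP-2-/- minus ob/ob (2), and 1 in ob/ob TBP-2-/- minus TBP-2-/- (2). For ob/ob minus WT they were 6 (0). With normexp the count in ob/ob TBP-2-/- minus TBP-2-/- was also 1. Spike-in scaling shifts every gene of an array by the same amount. In the additive fit, 4 of the 10 genes passed with normexp for each effect and 0 under every other setting. All genes passing for TBP-2 loss and ob/ob then numbered 559 and 991, against 15 and 32, with 53.67 prior degrees of freedom against 3.527. They numbered 97 and 236 with spike-in scaling, 0 and 0 with quantile normalization or no filter on dim genes, 12 and 19 with the median of a gene's probes, and 22 and 96 with genes above background on all arrays. Over the settings the limma adjusted p ranged from 2.15e-06 to 1.0 for Cidec on TBP-2 loss and from 7.94e-07 to 0.812 for Cidea on ob/ob. The cause of these moves was not tested. No paired analysis was possible because each genotype had 1 array. Leaving out an array leaves its genotype without a value, so it was not run.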
